A study of Arabidopsis thaliana with 15 samples.

Results

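In inflorescence meristems of Arabidopsis thaliana, 74 genes of the 33326 in the deposited table had lower transcript levels in the mutant myb3r4 and higher levels in a line that carries a modified MYB3R4 transgene. They were chosen on group means of log2(TPM + 0.5), where TPM is a transcript level corrected for transcript length and scaled to the same total in every library. A member had a mean of at least 5 TPM in the wild type Col-0, a myb3r4 mean at least 0.25 below Col-0, a transgenic mean at least 0.25 above Col-0, and a myb3r1 mean no more than 0.2 below Col-0, with all differences on the log2 scale. Of 80 genes that met these criteria, 6 were left out by name, among them B-type cyclin genes.

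The study has 15 libraries in 5 groups of 3, and each library was made from a pool of 36 dissected meristems. The groups are Col-0, the mutants labelled myb3r1 and myb3r4, the mutant myb3r1myb3r4, called the double mutant here, and pMYB3R4::GFP-MYB3R4mNES, called the mNES line. The transgene is a GFP-tagged MYB3R4 under the promoter of MYB3R4 itself. The labels spell out neither mNES, a usual short form for a mutated nuclear export signal, nor the background that carries the transgene, nor the mutant alleles. All plants grew in long days (16 h light, 8 h dark), with 21 °C by day and 17 °C at night, and were cut when the stem was about 1 cm long, and open flowers were removed. Each library also carries a shift experiment number, equal to its replicate number, whose meaning the labels do not explain. They do not say whether replicates came from separate plantings either, so a p-value here covers no more than the differences among these libraries. Read totals cannot be had from TPM, and the depth behind each value is therefore unknown.

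MYB3R proteins are plant relatives of animal B-MYB with repeated MYB domains that bind a short DNA element, the M-phase-specific activator or MSA element, whose core is AACGG. MYB3R4 is best known as an activator of genes of the G2 and M phases, including genes for building the cell plate at cytokinesis. MYB3R1 can activate some of these genes and, with other family members, repress them outside mitosis. MYB3R4 moves from the cytoplasm into the nucleus around mitosis, and a nuclear export signal is a stretch of protein through which exportins carry a protein out of the nucleus.

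The promoters are shown first because the core element was common in them and no criterion used sequence. For 70 members and 21468 of all tested genes, a window from 250 bases before to 50 bases after the annotated gene start could be read from the TAIR10.1 assembly with RefSeq gene starts. Both strands were searched. AACGG stood in 41 of the 70 windows, or 58.6%, against 26.3% of all tested genes. At least 2 copies stood in 25 windows, or 35.7% against 5.48%, and at least 3 in 14 windows, against 256 of all tested genes. The longer TCNAACGG, which contains the core, was in 18.6% against 2.9%. The full MSA element, searched by its consensus and also containing the core, was in 4.29% against 0.564%, namely in AT3G51230, AT4G28230 and ENODL13. Of the other motifs searched, TTTGAA was in 44.3% against 43.5%, TGGGCC in 12.9% against 18.4% and AAACCCTA in 1.43% against 5.96%. E2F sites, searched as TTTCCCGC, TTTGGCGC or TTTCGCGC, were in 3 windows, or 4.29% against 1.5%. A match is a description of letters and not a bound site.

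The stretches below, from RefSeq and TAIR10.1, end at the last base before the gene start and read 5′ to 3′ along the gene. AACGG and its complement CCGTT are in capitals. The first pair belongs to noncoding RNA genes with near-matching promoters, the next pair holds the gene with the largest difference between the mNES line and myb3r4 and the gene with the most copies, and the last 3 belong to genes described below that encode proteins of the cell surface, microtubules and unknown function.
AT3G59765, chr3:22078362-22078521, minus strand: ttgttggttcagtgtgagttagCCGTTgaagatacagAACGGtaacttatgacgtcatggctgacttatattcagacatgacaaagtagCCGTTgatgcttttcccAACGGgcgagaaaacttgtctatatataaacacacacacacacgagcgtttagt
AT1G78865, chr1:29649952-29650111, minus strand: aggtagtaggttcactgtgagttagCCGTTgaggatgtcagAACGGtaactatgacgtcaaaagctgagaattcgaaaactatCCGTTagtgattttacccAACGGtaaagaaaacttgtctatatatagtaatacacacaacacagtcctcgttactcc
AT3G05152, chr3:1443807-1443966, plus strand: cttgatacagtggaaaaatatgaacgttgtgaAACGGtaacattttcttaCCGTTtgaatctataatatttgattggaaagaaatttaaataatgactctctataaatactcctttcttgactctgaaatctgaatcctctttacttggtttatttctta
AT3G51230, chr3:19024353-19024602, minus strand: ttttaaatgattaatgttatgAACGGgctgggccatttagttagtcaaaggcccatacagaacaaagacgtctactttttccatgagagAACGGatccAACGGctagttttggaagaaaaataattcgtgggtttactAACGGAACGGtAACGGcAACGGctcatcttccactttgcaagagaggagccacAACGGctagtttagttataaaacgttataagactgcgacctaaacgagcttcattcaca
ENODL13, chr5:8647818-8648067, minus strand: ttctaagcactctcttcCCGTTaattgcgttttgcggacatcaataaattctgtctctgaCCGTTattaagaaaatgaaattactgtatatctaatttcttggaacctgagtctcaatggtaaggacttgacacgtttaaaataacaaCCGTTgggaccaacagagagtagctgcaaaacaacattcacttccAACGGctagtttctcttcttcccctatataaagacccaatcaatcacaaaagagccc
MDP40, chr1:8173086-8173335, minus strand: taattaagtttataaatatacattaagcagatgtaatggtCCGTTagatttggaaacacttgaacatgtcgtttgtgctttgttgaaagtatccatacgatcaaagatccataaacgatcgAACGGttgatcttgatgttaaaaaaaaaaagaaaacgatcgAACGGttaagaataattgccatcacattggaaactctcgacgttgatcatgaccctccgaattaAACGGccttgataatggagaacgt
AT4G28230, chr4:13997308-13997467, minus strand: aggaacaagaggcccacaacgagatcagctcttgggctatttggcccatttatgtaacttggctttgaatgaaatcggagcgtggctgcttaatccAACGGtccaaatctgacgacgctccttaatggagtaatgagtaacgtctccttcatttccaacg
In AT3G51230 the stretch holds 8 copies, all on the strand of the gene. In AT4G28230 the full MSA element lies across the gene start, from -7 to 3. The stretch shown for AT4G28230 ends within that element, and its capitals mark a copy of the core at -64, outside it. The stretches of AT3G59765 and AT1G78865 hold 4 copies each, in the same order of strands and at similar distances, at -138, -123, -71 and -54 and at -135, -119, -77 and -59. Their windows were 74.6% identical over 224 aligned bases, although the genes lie on chromosomes 3 and 1 and their transcripts did not match each other at the settings used. AT5G65685, annotated as a UDP-glycosyltransferase, and AT5G66607, with a predicted protein of 37 residues, also shared promoter sequence, 83.6% identical over 134 bases. Members with related sequence are not independent examples.

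**Figure D1:**
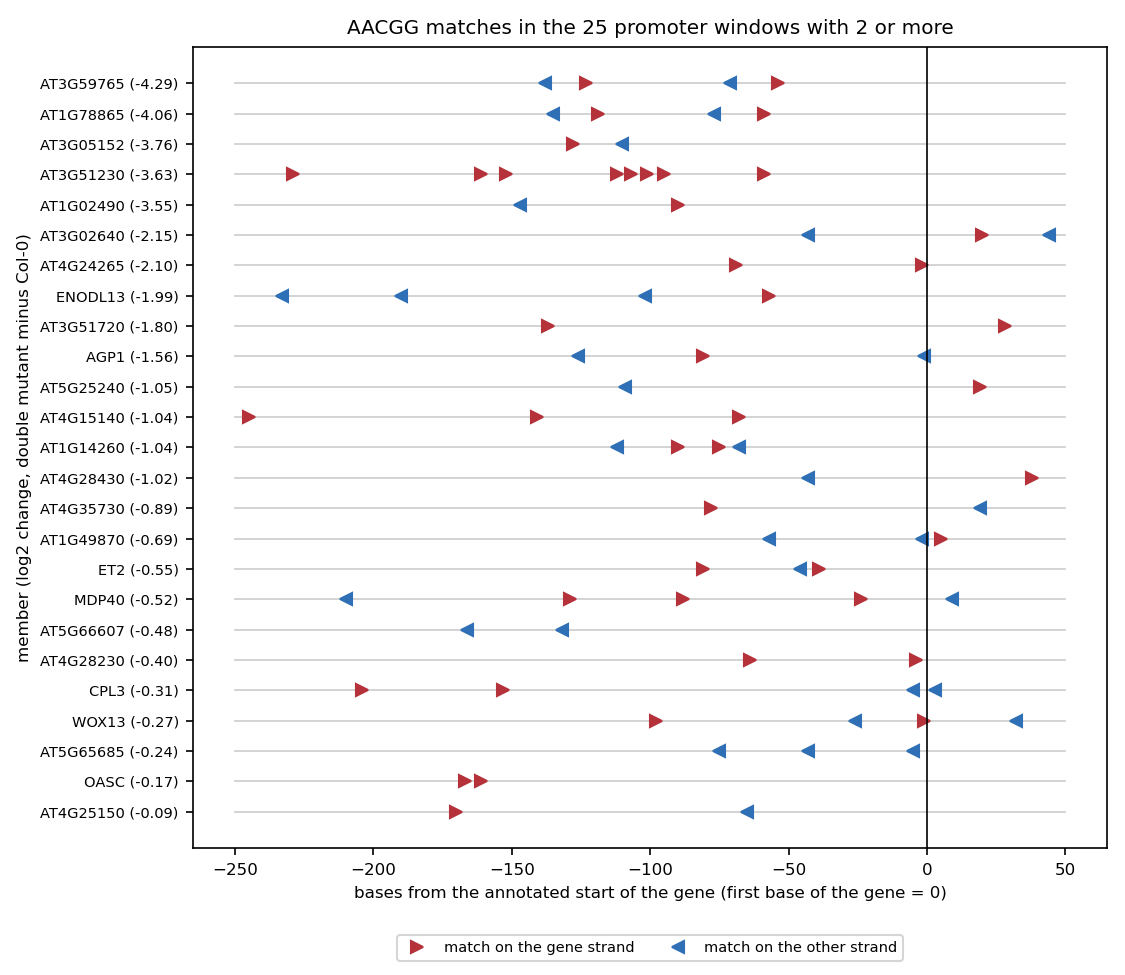
Position of each AACGG match, in bases from the annotated gene start (first base of the gene = 0), in the 25 members with 2 or more in the window. Triangles give the strand, and the log2 change in the double mutant stands beside each name; AT3G51230 has 8 matches, and most rows hold matches within 150 bases before the start.

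The distance of the core from the gene start was counted in bins. Among members, 27.1% of windows had a match that began from -100 to -51, and 7 of the 70 had one from -250 to -201. Among all tested genes the shares in the same bins were 6.01% and 4.28%. In each of the 6 bins of 50 bases the share was higher among members.

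**Figure D2:**
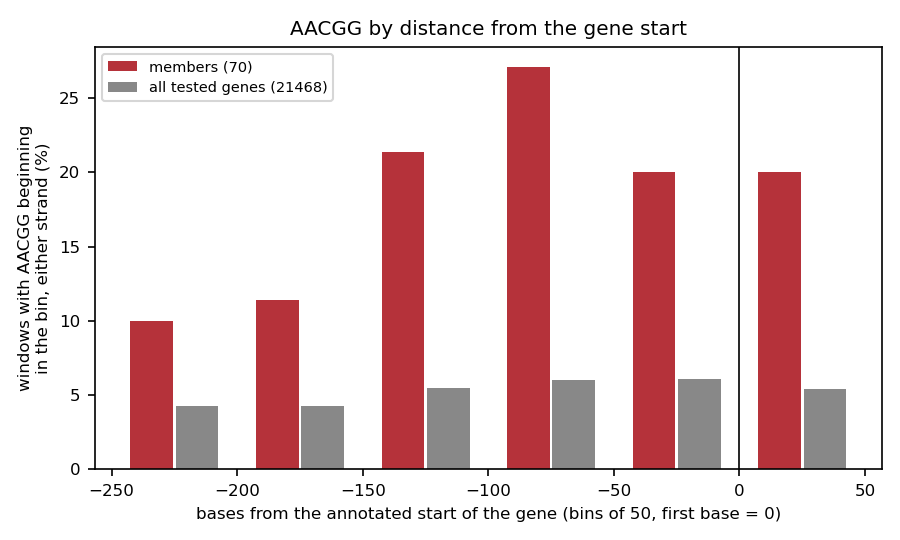
Share of promoter windows (percent, bars from 0) with an AACGG match on either strand that begins in each bin of 50 bases, for 70 members and 21468 tested genes. Member shares run from 7 of 70 windows to 27.1% and those of all tested genes from 4.26% to 6.1%.

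The values that chose the members are given as a description, with no test. Their Col-0 means ran from 5.08 to 190 TPM, with a median of 11.47. The myb3r4 mean was below Col-0 by a median difference of -0.44 on the log2 scale (range -2.93 to -0.25), and the mNES mean stood above it with a median of 0.53 (0.25 to 3.19). The myb3r1 difference had a median of 0.03 (-0.18 to 0.63). In 53 members all 3 myb3r4 libraries lay below, and all 3 mNES libraries above, every Col-0 library. Whether or not the other held, the first of these held in 58 members and the second in 61. Over all tested genes the shares were 13.3% and 13.7%, and the choice of members fixes the difference. The mNES mean was the highest of the 5 groups in 71 of 74.

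At the thresholds, OLEO4, an oleosin gene, was just inside for myb3r4 at -0.2503 and AT2G21220 just outside at -0.2472. For the mNES line, the transporter gene ABCG19 was just inside at 0.2504 and AT3G03440 just outside at 0.2402. OLEO4 was also just inside for myb3r1 at -0.179, with AT5G40450 outside at -0.216. For the Col-0 level, AT1G20065 was inside at 5.08 TPM and AT2G35733 outside at 4.91 TPM.

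By kind, 63 members were protein coding, 5 noncoding RNA genes and 2 transcribed pseudogenes. The other 4 IDs, AT4G10845, AT3G17998, ATCG00940 and ATCG01190, had no entry in the annotation, and the last 2 held identical values in every library. Members were short. The median transcript had 1191 bases and 2 exons, against 1710 bases and 5 exons for tested genes with a Col-0 mean of at least 5 TPM. Of 70 with a gene model, 27 had a single exon, or 38.6% against 13.7%. Predicted proteins of at most 100 residues made up 14 of 63, or 22.2% against 4.5%. The product was given as "uncharacterized protein" for 16. Another annotated gene overlapped 20 members, and 9 had a transcript at least 90% identical to another gene over at least 100 bases, so how reads were split makes those values uncertain.

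**Figure D3:**
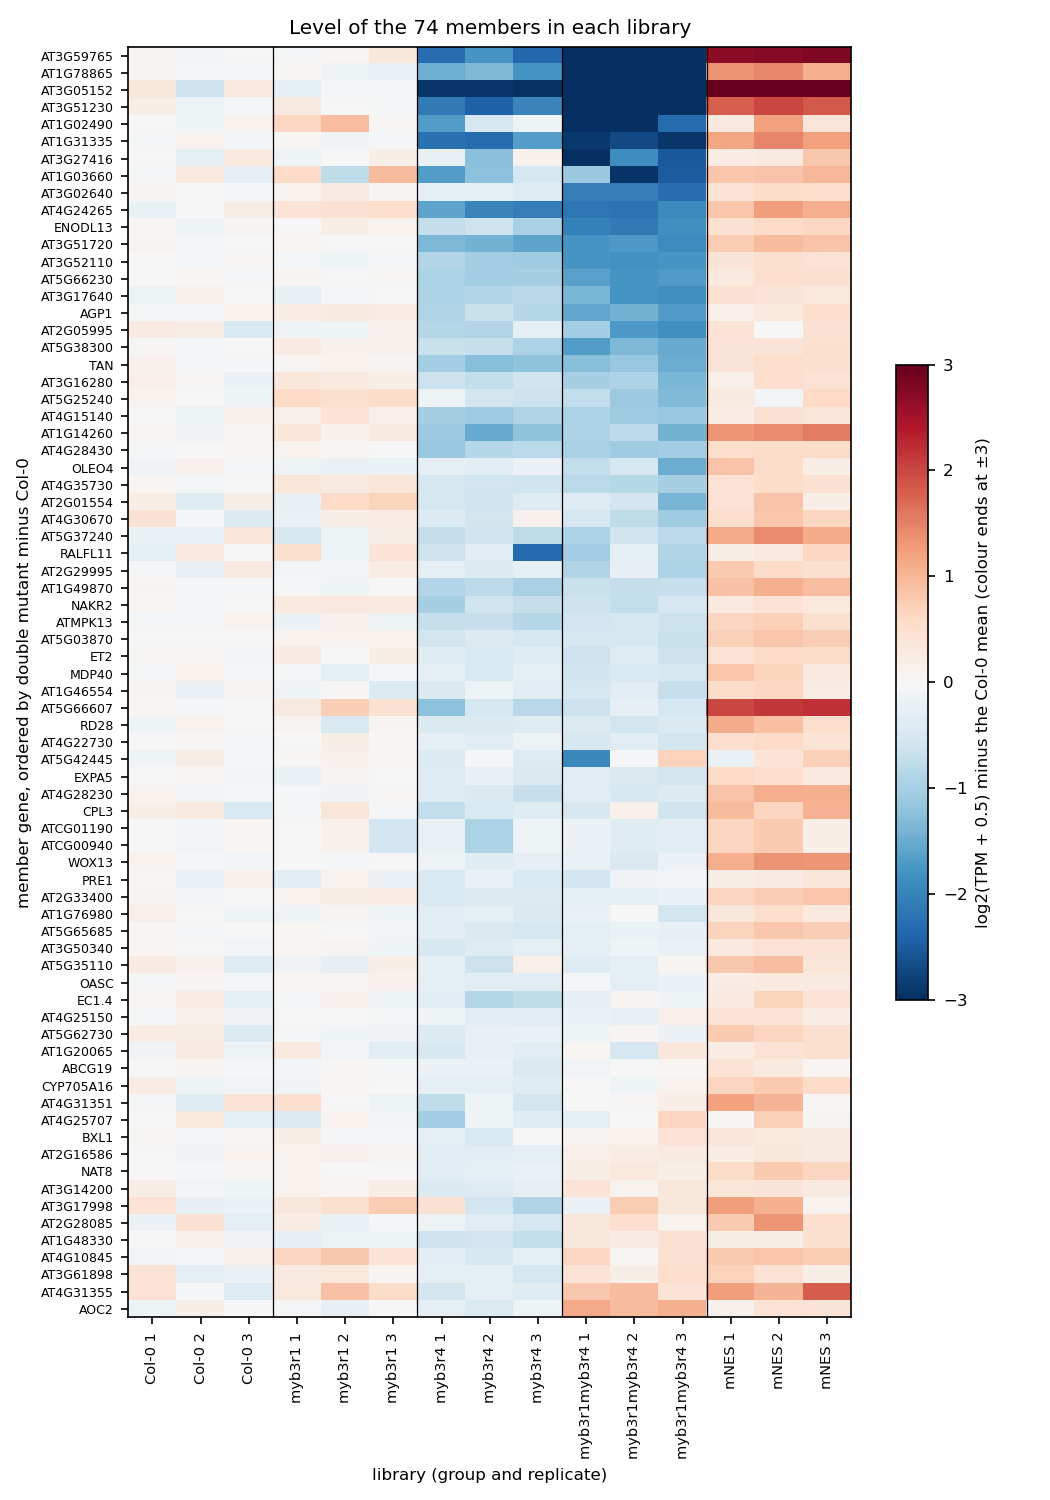
Level of the 74 members (rows, ordered by the change in the double mutant) in the 15 libraries (columns), as log2(TPM + 0.5) minus the Col-0 mean, with blue lower and red higher and colours ending at 3 on either side. The myb3r4 and mNES columns are blue and red because the rule chose them so; in the double mutant, which the rule did not use, 47 rows were lower, 7 higher and 20 not called.

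The double mutant is the group the criteria did not use, and it asks how these genes stand when MYB3R1 is mutated together with MYB3R4. The Col-0 libraries entered the choice of members too, so only the double mutant libraries are new to the comparison. By its label, the double mutant also carries the myb3r4 mutation, and low levels in myb3r4 chose the members. A larger share of lower genes among members than among all genes is therefore not independent of the choice. All 74 members passed the filter on low values (at least 1 TPM in at least 3 libraries), as did 21737 genes in all. With limma and an adjusted p under 0.05, 47 members were lower in the double mutant than in Col-0, 7 were higher and 20 were not called. Lower genes were thus 63.5% of members against 17.1% of all genes tested, and higher genes 9.46% against 24.5%. With the replicate number as a block 45 were lower and 6 higher, and the calls lost were those of AT2G01554, AT3G50340 and AT4G10845 (limma adjusted p = 0.0548, 0.0545 and 0.0517). Among the 16527 tested genes that met the same Col-0 level as the members, 17.0% were lower, 26.8% higher and 3.54% lower by at least 1. The median change was -0.52 on the log2 scale over members and 0.05 over all genes. A fall of at least 1 was called for 24 members, or 32.4% against 4.75%, and a rise of at least 1 for 1 member, AOC2, against 1.58%. In 49 members all 3 double mutant libraries lay below every Col-0 library, against 20.9% of all genes, in 5 they lay above, against 31.8%, and in 20 the groups overlapped. Members that overlap no annotated gene and have no near copy, a choice made after the values were seen, were lower in 30 of 45, or 66.7%.

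**Figure D4:**
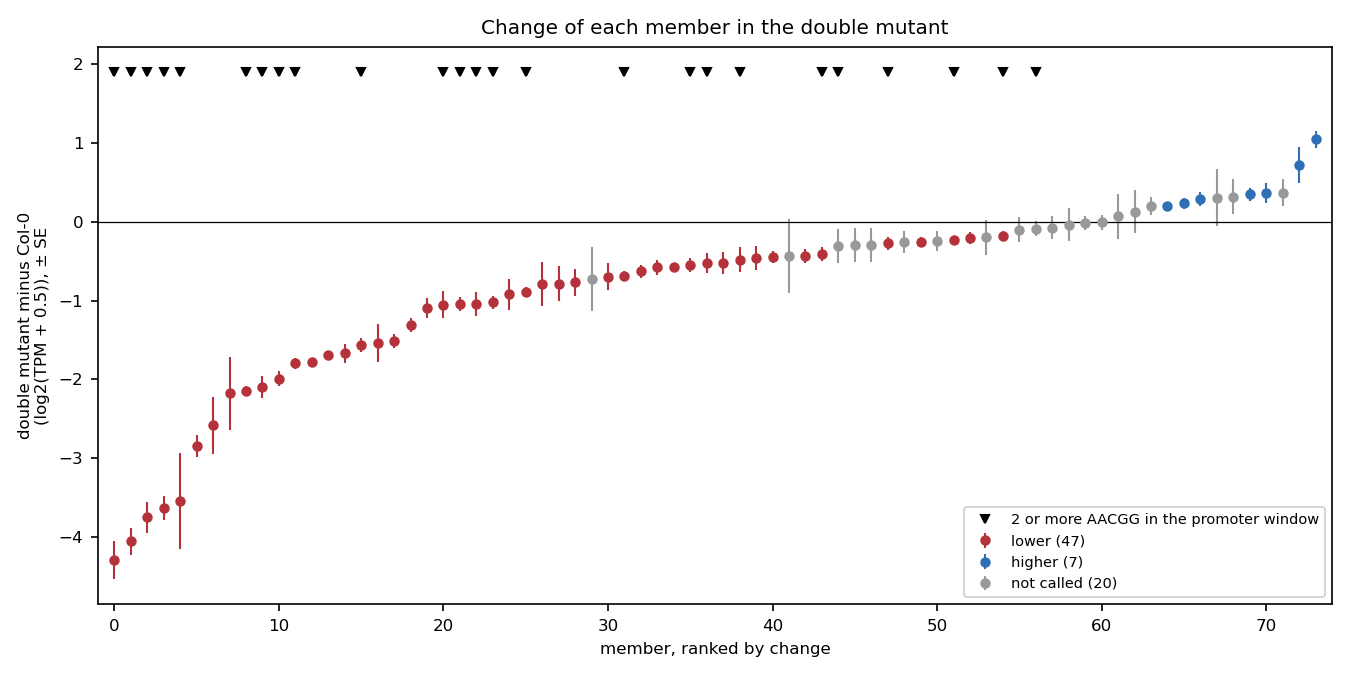
Change of each member in the double mutant against Col-0 (log2(TPM + 0.5), ± SE, limma, 3 libraries a group), ranked from the largest fall to the largest rise and coloured by call. Triangles mark members with 2 or more AACGG in the promoter window; 23 of those 25 were lower and 0 higher.

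Genes that missed a single criterion are given for comparison. Of 648 genes that met all criteria but the one on myb3r4, 25.8% were lower and 25% higher in the double mutant, with a median of -0.025, and 0.772% fell by at least 1. Of 311 that met all but the one on the mNES line, 34.1% were lower and 7.4% higher, with a median of -0.155, and 5.79% fell by at least 1. AACGG was in 28.3% and 30.7% of the windows of these near sets. No test of the difference between these sets and the members was made, because the sets were defined by the levels themselves.

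The calls in the double mutant were also counted by the core element, with no test. Of 41 with at least 1 AACGG, 34 were lower, or 82.9%, with a median change of -0.89. Of the 29 without it, 13 were lower, or 44.8%, with a median of -0.26. Of the 25 with at least 2 copies, 23 were lower, 0 higher and 2 not called, the latter being CPL3 and AT4G25150, and their median was -1.04. Over all tested genes the shares differed little with the number of copies. Of all 1176 tested genes with at least 2 AACGG, 16.8% were lower and 26.7% higher, and of the 15831 without it 17.5% were lower and 24.3% higher.

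The 3 largest falls in the double mutant belonged to noncoding RNA genes. AT3G05152 (chromosome 3, 1443967 to 1445087, plus strand) stood at 8.67, 4.27 and 8.40 TPM in Col-0, at 5.53, 6.66 and 6.61 in myb3r1, at 0.471, 0.462 and 0.432 in myb3r4, and at 61.4, 67.9 and 69.1 in the mNES line. In the double mutant it was listed at 0.131, 0 and 0 TPM, below every other library. Its change there was -3.76 on the log2(TPM + 0.5) scale (SE 0.198, limma adjusted p = 3.3e-08), and the added 0.5 makes this smaller than the ratio of the levels.

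AT3G59765 (chromosome 3, 22075815 to 22078361, minus strand) was at 26.5, 23.4 and 24.6 TPM in Col-0, 24.2, 25.8 and 31.5 in myb3r1, 4.71, 6.93 and 4.46 in myb3r4, and 162, 168 and 177 in the mNES line. The double mutant libraries held 0.524, 0.474 and 1.65 TPM, below those of myb3r4. The fall of -4.29 against Col-0 (SE 0.241, limma adjusted p = 6.27e-08) was the largest of any member. AT1G78865 (chromosome 1, 29647738 to 29649951, minus strand), the gene with the related promoter, showed the same order of groups, with 32.2, 29.9 and 29.7 TPM in Col-0, 10.7, 11.6 and 8.46 in myb3r4, 0.844, 1.61 and 1.79 in the double mutant and 78.4, 84.2 and 65.2 in the mNES line. Its myb3r1 libraries, at 31.1, 27.3 and 26.6 TPM, overlapped with Col-0, and its change in the double mutant was -4.06 (SE 0.171, limma adjusted p = 2.79e-09). AT1G78865 overlaps a gene on the opposite strand, and whether the authors' quantification used strand is not given in the sources used here. The neighbour of AT3G59765 on the same strand, OASC, lies 361 bases away and is itself a member. OASC encodes a mitochondrial enzyme of cysteine synthesis and moved little, from 39.2, 43.1 and 39.7 TPM in Col-0 to 38.7, 33.3 and 36.0 in the double mutant, a change of -0.17 (SE 0.052, limma adjusted p = 0.0164). That call was lost with only the groups compared, without Col-0 replicate 2 and without double mutant replicate 2 (limma adjusted p = 0.0689, 0.0799 and 0.0743).

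Of the remaining noncoding members, AT2G05995 fell by 1.54 and AT1G46554 by 0.52 in the double mutant (limma adjusted p = 0.000223 and 0.00936). The 2 pseudogenes, CYP705A16 at -0.01 and AT5G42445 at -0.43, were not called.

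**Figure D5:**
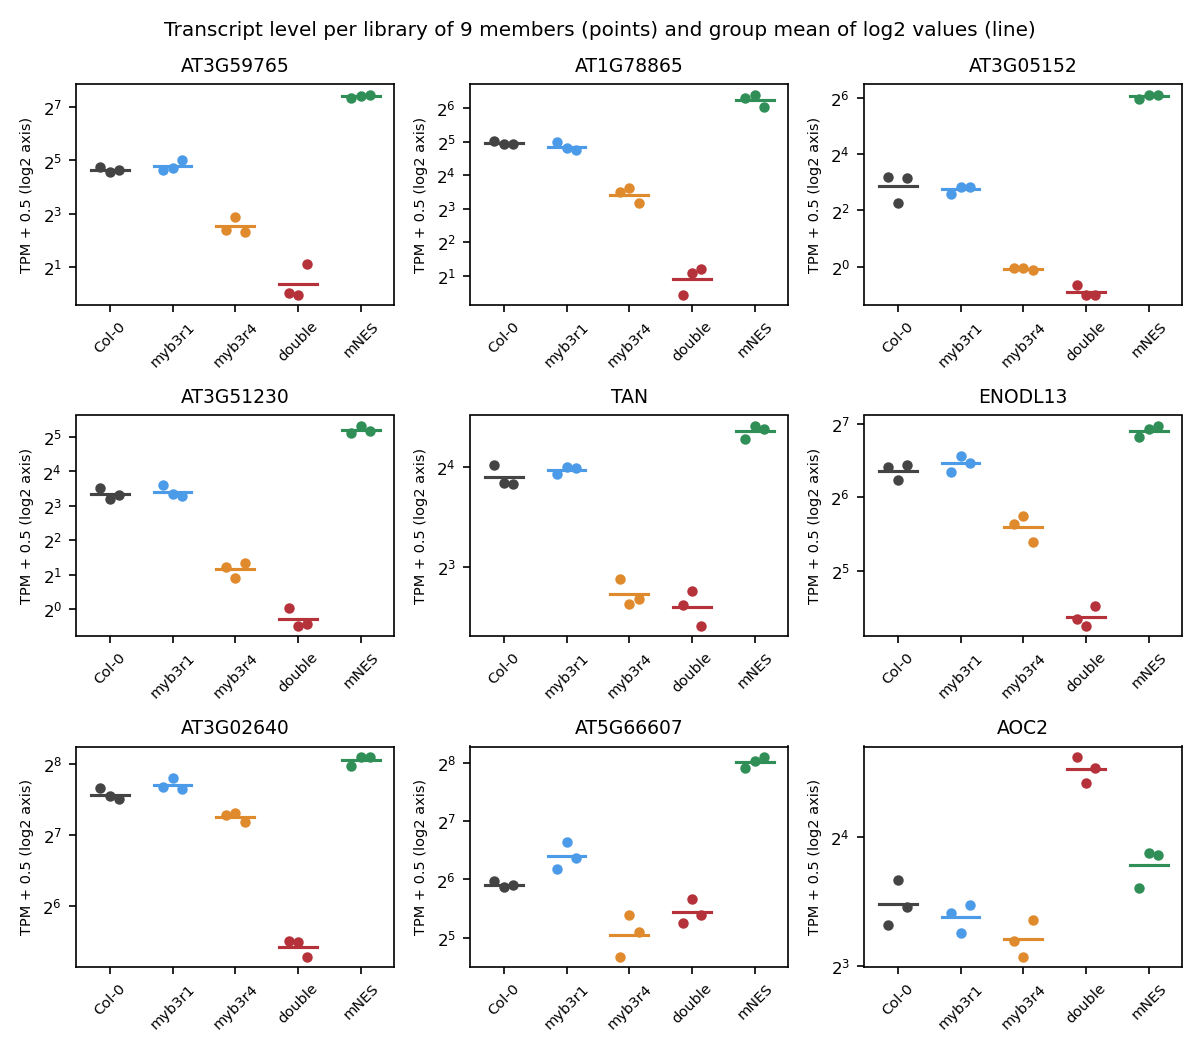
TPM + 0.5 on a log2 axis in each of the 15 libraries (points) for 9 members, with a line at the mean of the log2 values of each group. In AT3G59765, AT1G78865 and AT3G51230 the double mutant lies below myb3r4, in TAN both lie together, in AT5G66607 the double mutant stands slightly higher than myb3r4, and in AOC2 the double mutant is the highest group.

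Few members are known to act in division itself, and the rule had left out 6 genes by name. TAN, or TANGLED (AT3G05330, chromosome 3, 1518857 to 1521909, minus strand), marks the cortical division site to which the new cell plate is guided. It was at 15.8, 13.8 and 13.8 TPM in Col-0, 14.7, 15.5 and 15.4 in myb3r1, 6.84, 5.68 and 5.91 in myb3r4, 5.63, 6.25 and 4.80 in the double mutant and 18.9, 20.9 and 20.4 in the mNES line. The myb3r4 and double mutant libraries overlapped and lay below all others. The change in the double mutant was -1.31 (SE 0.090, limma adjusted p = 3.25e-07), and its window holds no AACGG. MDP40, which encodes a microtubule-associated protein studied in hypocotyl growth, fell from 5.93, 6.68 and 5.84 TPM in Col-0 to 3.87, 4.36 and 4.13 in the double mutant, a change of -0.52 (SE 0.123, limma adjusted p = 0.00412). Its window holds 5 copies of AACGG, 4 of them within TCNAACGG. ATMPK13, a MAP kinase that MKK6 of the cytokinesis cascade can activate, fell by 0.58 (SE 0.091, limma adjusted p = 0.000225).

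AT3G51230 and AT5G66230 are both annotated as chalcone-flavanone isomerase family proteins, and their transcripts were 76.0% identical over 363 bases. AT3G51230 was at 11.0, 8.61 and 9.38 TPM in Col-0, 1.84, 1.37 and 2.05 in myb3r4, 0.521, 0.213 and 0.240 in the double mutant, and 34.5, 39.9 and 35.8 in the mNES line. These 4 groups did not overlap, and the change in the double mutant was -3.63 (SE 0.153, limma adjusted p = 2.79e-09). AT5G66230, with no AACGG in its window, went from 43.9, 45.1 and 42.0 TPM in Col-0 to 13.8, 12.4 and 13.2 in the double mutant, a change of -1.70 (limma adjusted p = 3.06e-10). It overlaps AT5G66220 on the same strand, with transcripts 96.5% identical over 678 bases, so how reads were split makes its values uncertain. AT3G51230 and AT5G66230 both fell in the double mutant, and of these only AT3G51230 has the core in its window.

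Cell surface and wall genes were a varied group. ENODL13 encodes an early nodulin-like protein, a cell surface protein related to copper-binding plantacyanins. It stood at 85.2, 74.8 and 86.3 TPM in Col-0, 49.4, 53.0 and 41.7 in myb3r4, 19.8, 18.5 and 22.5 in the double mutant, and 113, 122 and 126 in the mNES line, with no overlap between these groups. The change in the double mutant was -1.99 (SE 0.094, limma adjusted p = 1.04e-08).
AGP1, which encodes an arabinogalactan protein, a sugar-rich protein of the wall and membrane, was at 119, 118 and 131 TPM in Col-0, 65.8, 76.5 and 67.4 in myb3r4, 41.6, 45.4 and 37.1 in the double mutant and 136, 153 and 175 in the mNES line. The double mutant was again the lowest group, with a change of -1.56 (SE 0.089, limma adjusted p = 7.22e-08). EXPA5, an expansin that loosens walls, fell by 0.43 (limma adjusted p = 0.00153). BXL1, a xylosidase that trims wall polysaccharides, was at 11.9, 11.1 and 12.02 TPM in Col-0 and at 12.3, 12.5 and 15.9 in the double mutant, and was not called (limma adjusted p = 0.171). RALFL11, a peptide of the rapid alkalinization factor family, was at -0.73 and not called, and its 3 myb3r4 libraries ranged from 2.25 to 10.7 TPM; with only the groups compared it was called lower (limma adjusted p = 0.0386). The receptor-like kinase gene AT4G22730 fell by 0.45 (limma adjusted p = 0.000306).

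Several members encode transcription factors or related proteins. WOX13, a homeobox gene of the WUSCHEL family known for roles in the fruit, was at 26.1, 23.4 and 22.8 TPM in Col-0, 21.7, 18.6 and 20.23 in myb3r4, 21.0, 17.6 and 21.3 in the double mutant, and 52.0, 62.0 and 60.9 in the mNES line. Its high values were those of the mNES line, while the double mutant and myb3r4 overlapped. The fall in the double mutant was 0.27 (SE 0.084, limma adjusted p = 0.0204), and it was not called without Col-0 replicate 1 or without double mutant replicate 2 (limma adjusted p = 0.0834 and 0.0913).
CPL3, an R3 MYB gene that limits trichome formation, was at 13.1, 13.9 and 8.26 TPM in Col-0 and at 8.05, 12.7 and 7.43 in the double mutant, so the groups overlapped and the gene was not called. PRE1, a growth-promoting helix-loop-helix gene of the gibberellin response, was not called either, at -0.26. ET2, an effector of transcription, fell by 0.55 and AT3G16280, annotated as an integrase-type DNA-binding protein, by 1.10 (limma adjusted p = 0.000274 and 2.6e-05). Genes annotated as homeobox proteins without a symbol also fell, with changes of -2.0964 in AT4G24265 and -1.51 in AT5G38300 (limma adjusted p = 3.09e-07 and 1.04e-07). AT1G14260, annotated to the RING/FYVE/PHD zinc finger superfamily and with 4 copies of AACGG, fell by 1.04 (limma adjusted p = 0.000124). AT2G28085, of the auxin-responsive SAUR family, stood at 0.32 and was not called.

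Among genes of unknown function, AT1G31335, with a predicted protein of 70 residues, was at 74.2, 82.1 and 71.7 TPM in Col-0, 15.7, 14.9 and 23.6 in myb3r4, 9.77, 11.1 and 9.53 in the double mutant and 173, 212 and 178 in the mNES line. Its change in the double mutant was -2.85 (SE 0.137, limma adjusted p = 1.16e-08). AT3G02640 was at 202, 187 and 181 TPM in Col-0, at 155, 158 and 145 in myb3r4, and at 44.8, 44.4 and 38.3 in the double mutant, with a change of -2.15 (SE 0.065, limma adjusted p = 1.2e-10). Its double mutant libraries lay far below those of myb3r4, which in turn lay below Col-0. AT3G51720, of the WEB family of coiled-coil proteins, was at 52.5, 47.4 and 49.4 TPM in Col-0, 19.2, 18.3 and 16.2 in myb3r4, 14.1, 14.7 and 13.1 in the double mutant and 84.2, 95.9 and 90.9 in the mNES line. Its change was -1.80 (SE 0.067, limma adjusted p = 8.46e-10). AT1G02490, which has a near copy, fell by 3.55 with a large error (SE 0.609, limma adjusted p = 0.000462), AT3G27416 by 2.59 (limma adjusted p = 0.000103) and AT1G03660, an ankyrin-repeat gene, by 2.18 (limma adjusted p = 0.00226).
AT4G28230, with the full MSA element, went from 11.4, 9.93 and 10.3 TPM in Col-0 to 8.31, 7.35 and 7.82 in the double mutant and to 19.4, 22.9 and 22.6 in the mNES line, and its fall in the double mutant was 0.40 (SE 0.088, limma adjusted p = 0.00257). AT5G66607 was at 62.1, 57.9 and 59.4 TPM in Col-0, 24.99, 41.2 and 33.6 in myb3r4, 37.7, 49.98 and 41.4 in the double mutant, and 240, 260 and 276 in the mNES line. It was high in the mNES line, and its double mutant and myb3r4 libraries overlapped. The change in the double mutant was -0.48 (SE 0.156, limma adjusted p = 0.0253), not called when Col-0 replicate 1 or 3 or double mutant replicate 1 or 3 was left out, with limma adjusted p from 0.055 to 0.0966. Of the 14 members with a protein of at most 100 residues, 4 were lower, or 28.6% against 17.1% of all genes tested, 3 higher, or 21.4% against 24.5%, and 7 not called.

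Some members encode proteins of membranes, transport and redox state. AT4G28430, a reticulon gene whose family shapes the endoplasmic reticulum, was at 5.75, 5.91 and 6.16 TPM in Col-0 and at 2.77, 2.58 and 2.65 in the double mutant, a change of -1.02 (SE 0.085, limma adjusted p = 1.68e-06). AT4G35730, of a family that acts at multivesicular bodies, fell by 0.89 (SE 0.056, limma adjusted p = 1.62e-07) from 19.8, 18.3 and 19.0 TPM to 10.7, 10.2 and 9.28. Both have 2 copies of AACGG in the window, and in both the groups were apart. AT5G03870, a glutaredoxin family gene, was at 18.4, 18.3 and 18.4 TPM in Col-0, 12.6, 12.5 and 11.3 in the double mutant and 30.4, 33.1 and 31.0 in the mNES line, and fell by 0.58 (SE 0.053, limma adjusted p = 4.16e-06). NAKR2, a relative of the sodium and potassium regulator NaKR1 of the phloem, fell by 0.63 (limma adjusted p = 8.55e-05). RD28, an aquaporin gene with a near-identical neighbour, fell by 0.46 (limma adjusted p = 0.0302), and was not called when Col-0 replicate 2 or 3 or any 1 double mutant replicate was left out, with limma adjusted p from 0.0514 to 0.0977. ABCG19, AT5G62730 of the major facilitator family and the acid phosphatase gene AT4G25150 were not called, with changes of -0.02, -0.08 and -0.09, although AT5G62730 was called lower without Col-0 replicate 3 (limma adjusted p = 0.0494). The signal peptide genes split as well, with the PSY3-like AT2G29995 at -0.70 and called (limma adjusted p = 0.0059), and EC1.4, of the family that egg cells secrete, at -0.10 and not called.

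AT3G52110, annotated as an interferon-activable protein, was at 28.9, 27.2 and 29.5 TPM in Col-0, 15.3, 13.5 and 13.3 in myb3r4, 7.98, 7.78 and 7.96 in the double mutant and 37.4, 40.1 and 38.8 in the mNES line. No 2 of these groups overlapped, and its change in the double mutant was -1.79 (SE 0.054, limma adjusted p = 1.2e-10). AT3G17640, a leucine-rich repeat gene, fell by 1.67 and AT4G15140, with 3 copies of AACGG, by 1.04 (limma adjusted p = 5.54e-07 and 1.94e-06). AT4G31351 and AT4G31355, 1546 bases apart on opposite strands and with transcripts 86.8% identical over 402 bases, differed in their calls, at 0.07 and not called and at 0.72 and higher. AT4G31351 has near copies and overlaps a gene on the same strand, and AT4G31355 overlaps a gene on the opposite strand. How reads were split makes the values of both uncertain.

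The members also differed in how the double mutant stood against myb3r4, given as values because myb3r4 chose the members. The median difference was -0.03 on the log2 scale, with a range from -2.77 to 1.32. The double mutant was at least 1 below myb3r4 in 8 members, all called lower against Col-0: AT1G02490, AT1G78865, AT3G59765, AT3G27416, AT3G02640, AT3G51230, ENODL13 and AT1G03660. Those calls add little, because the criteria already put the myb3r4 mean of every member at least 0.25 below Col-0. In 16 members the double mutant was lower than myb3r4 by 0.25 to 1, in 32 it lay within 0.25, and in 18 it was at least 0.25 higher. Of the 47 members lower than in Col-0, 22 lay within 0.25 of myb3r4, TAN and WOX13 among them.

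The 7 members that were higher in the double mutant went against the 47 that were lower, while 20 were not called. AOC2 (chromosome 3, 9406669 to 9408071, plus strand), an enzyme of jasmonate synthesis, was at 9.45, 12.2 and 10.46 TPM in Col-0, 8.62, 7.89 and 9.72 in myb3r4, 24.2, 20.8 and 22.7 in the double mutant and 11.7, 14.2 and 14.0 in the mNES line. All double mutant libraries were above all others, with a rise of 1.05 (SE 0.106, limma adjusted p = 8.14e-06). The others rose by 0.21 to 0.72. AT1G48330 rose by 0.35 from 106, 115 and 97.7 TPM to 134, 126 and 147 (limma adjusted p = 0.00472) and AT2G16586, which has near copies, by 0.21 (limma adjusted p = 0.00499). AT4G31355, AT4G10845, AT3G14200, a DnaJ-domain gene, and NAT8, a nucleobase transporter gene, rose by 0.72, 0.37, 0.29 and 0.24 (limma adjusted p = 0.024, 0.0377, 0.0232 and 0.0175). Each of these 4 calls was lost on leaving out at least 1 library, and some in other fits too. For AT4G31355 those were Col-0 replicates 2 and 3 and double mutant replicates 1 and 2 (limma adjusted p = 0.0662 to 0.106), for AT3G14200 Col-0 replicates 2 and 3 and double mutant replicates 1 and 3 (0.0779 to 0.0982), for AT4G10845 Col-0 replicates 1 and 2 and double mutant replicates 1 and 3 (0.101 to 0.166), and for NAT8 Col-0 replicate 2 and double mutant replicate 2 (0.0576 and 0.0705). With median-of-ratios scaling 4 members were higher, and AT4G10845, AT3G14200 and NAT8 were not called (limma adjusted p = 0.0727, 0.0501 and 0.0513). With only the groups compared in the fit, AT4G10845 and AT3G14200 were not called (limma adjusted p = 0.0898 and 0.081), nor was AT4G10845 with no filter on low values (limma adjusted p = 0.0561).

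TAN was the only member on the lists of known division genes, which were chosen with earlier results of these data known. The 16 genes left out by name, of which 6 met the criteria, include B-type cyclin, CDC20 and KNOLLE genes of these lists. How many list genes are members was thus set in part by those exclusions and not only by the levels. In the double mutant, 24.5% of all genes were higher and 17.1% lower. There the cytokinesis list had 16 higher and 6 lower of 23, the list of mitotic cyclins with B-type CDKs 14 higher and 3 lower of 21, the mitotic regulators 14 higher and 5 lower of 21, and the replication genes 14 higher and 0 lower of 19. In myb3r4, where 4.55% of all genes were higher and 3.04% lower, the same lists had 1 higher and 5 lower, 3 and 3, 2 and 5, and 0 and 0. In the mNES line, where 7.6% of all genes were higher and 9.39% lower, they had 3 higher and 8 lower, 2 and 7, 2 and 9, and 0 and 1. List medians in the double mutant ran from 0.28 to 0.35, beside -0.52 for the members.

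Other facts of the libraries stand beside these results. MYB3R4 was at 10.4 to 12.8 TPM in Col-0, 12.7 to 13.4 in myb3r4, 16.8 to 17.4 in the double mutant and 58.9 to 63.5 in the mNES line, where reads of the transgene can count toward the gene. MYB3R1 was at 13.1 to 13.5 TPM in Col-0, 17.2 to 18.1 in myb3r1 and 14.02 to 15.2 in the double mutant. Neither transcript was thus lower than in Col-0 in a line named after it, and because a level summed over a gene does not test for an insertion, these levels do not check the labels. Of 5 shoot meristem markers, 4 were tested, and their summed level was 103 to 108 TPM in Col-0 and 103 to 110 in the double mutant. It was 116 to 123 TPM in myb3r4 and 102 to 119 in the mNES line. Floral organ identity markers were at 881 to 894 TPM in Col-0, 831 to 880 in myb3r4, 883 to 912 in the double mutant and 774 to 801 in the mNES line. Of these 6, 3 were higher and 1 lower in the double mutant, beside 24.5% and 17.1% of all genes. In the mNES line 3 were lower, beside 9.39% of all genes. Markers of other tissues also moved with the groups. Summed anther and tapetum markers, 6 of 7 higher in the double mutant, were at 443 to 545 TPM in Col-0, 816 to 962 in the double mutant and 233 to 387 in the mNES line. Summed pollen markers, 3 of 5 lower in the double mutant, were at 177 to 209, 22.5 to 47.0 and 200 to 269 TPM in the same groups, with ANX2 at 0 in every double mutant library. In both single mutants these sums were also below Col-0, at 99.1 to 124 TPM in myb3r1 and 83.3 to 150 in myb3r4. Photosynthesis markers, 7 of 7 lower in the double mutant, summed to 11220 to 12008 TPM in Col-0, 10499 to 10752 in myb3r1, 10236 to 10404 in myb3r4, 8997 to 9711 in the double mutant and 10571 to 10737 in the mNES line. Epidermis markers, 3 of 3 higher in the double mutant, were at 823 to 918 TPM in Col-0, 1121 to 1191 in the double mutant and 639 to 682 in the mNES line. Of the vascular markers 4 of 6 were lower and 2 higher, and of the meiosis markers 4 of 5 were higher. In bulk tissue, fewer cells of a type and less RNA per cell cannot be told apart, and the part of these markers in the members' levels was not tested.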

How the data were processed

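The deposited values were TPM per gene in 15 libraries; the authors made them with Salmon on TAIR10 after FastQC, per the submitters' processing notes, and versions and how transcripts were summed to genes are not given in the sources used here. Groups came from the sample titles. Levels were analysed as log2(TPM + 0.5) with limma 3.58.1 in R 4.3.3, with group means for all 5 groups, a variance trend, 10 residual degrees of freedom and Benjamini-Hochberg adjustment over all 21737 genes with at least 1 TPM in at least 3 libraries. The fit was tested on simulated data. Two-sided p-values are reported only for the double mutant against Col-0. The members and lists were chosen with earlier results of these data known. Genes named were the 10 with the widest difference between mNES and myb3r4, the up to 8 largest rises and falls in the double mutant, list members, genes at the thresholds, and annotated regulators, kinases, hormone and wall genes; the others named, such as ENODL13, AGP1, MDP40, AT3G02640, AT5G66230 and AT4G28230, were chosen after their values were seen. Promoters and near copies (blastn 2.17.0) came from TAIR10.1, which carried 32570 of 33326 IDs.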

Additional observations from a re-analysis of the deposited data

How the results depend on the processing

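Of the 47 members lower in the double mutant, 42 to 47 stayed called lower under each of the 12 alternatives (added constants of 0.1 and 1, no filter, median-of-ratios scaling, only the groups compared, the replicate block, and each Col-0 or double mutant library left out). Members higher, 7 as reported, were 4 with median-of-ratios scaling and 3 to 7 on leaving out a library. Members with all double mutant libraries above Col-0, 5 as reported, were 3 with that scaling and 5 to 9 on leaving out a library. With that scaling 21.1% of all genes were lower and 17.5% higher, 45.2% of calls against 58.9% as reported being higher. Contrast thresholds of 0.35 left 41 members in place of 74, and leaving out a library gave 66 to 93, of which 58 to 72 were shared. A tally was made for the 34 members named by the stated choice. It leaves out those named after their values were seen, such as RD28 and OASC, whose lost calls are given above. Of its 408 values, 377 kept direction and call, 27 lost the call, and 4 turned sign, none of them called: on leaving out a library, ABCG19 ran from -0.049 without double mutant replicate 3 to 0.0233 without Col-0 replicate 2 (0.0173 without double mutant replicate 1), and AT1G20065 from -0.2251 without double mutant replicate 3 to 0.2036 without double mutant replicate 2 (0.0892 without Col-0 replicate 2). The cause was not tested. Same-numbered Col-0 and double mutant libraries deviated with correlations of -0.0394 to 0.0885, and 2 of 6 correlated best with their own number, so the reported values come from a fit without the block; the labels also give each library a shift experiment number equal to its replicate number, without saying what it marks. With the replicate block, 8830 genes, 45 members lower and 6 higher were called. Unknown depth leaves the counting error of low levels unknown.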
